A study of Mus musculus with 33 samples.

Results

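The crystallin genes described here are 9 genes of the lens crystallin family, Cryaa, Cryab, Cryba1, Cryba2, Cryba4, Crybb1, Crybb2, Crybb3 and Crygs, chosen by name among the 47729 genes of the count tables. They were read in 33 RNA libraries of C57BL/6J mouse retinal progenitor cells taken from embryonic day 14 retina. The 11 groups held 3 libraries each. They were untreated cells at day 0, cone primed cells at day 0, rod primed cells at day 0, cells under cone induction with COCO protein at days 5, 12, 21 and 35, and cells under rod induction with taurine and retinoic acid at the same days. COCO blocks BMP, Wnt and TGF-beta family ligands outside the cell, and taurine with retinoic acid is a common addition for rod differentiation. What priming consists of and how the cells were grown is not given in the labels, nor whether the 3 libraries of a group came from separate cultures or animals, so each p-value measures only the spread between these libraries.

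Crystallins are the abundant soluble proteins that give the lens its refractive power. The alpha crystallins are small heat shock proteins that hold unfolding proteins in solution, while the beta and gamma crystallins share a fold of Greek key motifs and serve as structural proteins of the lens fibre. Several of them are also made outside the lens: alpha B crystallin in glia, heart and skeletal muscle, and beta crystallins in the retina, where they have been described in neurons and glia after stress.

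Summed over the 33 libraries the 9 genes drew 25497 counts. Cryab drew 22446 of them, 88.0%, and Crybb3 drew 2413, 9.46%. The other 7 were scarce. Cryba1 had 231 counts, Crybb1 193 and Cryaa 117, and the remaining 4 had 42 or fewer each. Libraries held 7511837 to 19166442 gene counts (median 12985662), so that 3 counts correspond to 0.174 to 0.407 CPM (counts per 1000000 of the library's TMM-adjusted size) in a single library and to 0.0617 to 0.105 CPM over the 3 libraries of a group. That amount of 3 counts over a group is used below as the floor: where a group had no count at all, a fold is given as a lower bound against it. Of the members, 5 passed the filter on low counts and were tested in a fit across 18150 genes (Cryaa, Cryab, Cryba1, Crybb1 and Crybb3), and 4 were not (Cryba2, Cryba4, Crybb2 and Crygs). The filter asks for enough counts in as few as 3 libraries, so a gene can pass through the groups where it is high. Cryaa, with no more than 4 counts in any rod library, passed through cone libraries. Cryba1 likewise passed through cone libraries of days 12 and 21, and Crybb1 mainly through rod libraries of days 5 and 12. None of the 5 passed through untreated or primed libraries. Counts of members called among those tested are therefore shaped by the filter. A gene is called where its p from edgeR's quasi-likelihood test, adjusted over all 18150 genes by Benjamini-Hochberg, is under 0.05.

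The stretches before the transcription start are shown for the 4 genes that differed in level between cone and rod cultures, since the lens promoters of this family are known for short sites bound by Maf family factors. Each is the 250 bases upstream of the RefSeq start on GRCm38.p6, read 5′ to 3′ on the gene's own strand. Capitals mark the half-site of Maf factors, TGCTGA on either strand, and the core promoter box TATAAA. Cryaa lies at chr17:31677681-31677930 on the plus strand, Cryba1 at chr11:77725294-77725543 on the minus strand, Crybb1 at chr5:112255570-112255819 on the plus strand and Crybb3 at chr5:113081585-113081834 on the minus strand.
Cryaa: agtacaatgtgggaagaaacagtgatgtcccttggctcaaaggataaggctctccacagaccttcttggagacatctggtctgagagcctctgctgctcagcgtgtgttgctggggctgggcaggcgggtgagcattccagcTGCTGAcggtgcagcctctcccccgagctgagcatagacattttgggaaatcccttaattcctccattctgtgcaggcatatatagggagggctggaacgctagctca
Cryba1: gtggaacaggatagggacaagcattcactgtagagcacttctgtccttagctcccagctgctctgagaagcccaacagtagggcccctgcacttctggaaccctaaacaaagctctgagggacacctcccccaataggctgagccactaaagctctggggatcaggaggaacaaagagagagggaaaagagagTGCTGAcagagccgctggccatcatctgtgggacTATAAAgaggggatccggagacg
Crybb1: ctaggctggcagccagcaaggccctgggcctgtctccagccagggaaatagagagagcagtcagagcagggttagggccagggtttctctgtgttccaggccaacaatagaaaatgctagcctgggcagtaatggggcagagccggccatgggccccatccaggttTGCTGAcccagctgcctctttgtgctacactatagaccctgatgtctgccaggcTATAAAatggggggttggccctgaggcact
Crybb3: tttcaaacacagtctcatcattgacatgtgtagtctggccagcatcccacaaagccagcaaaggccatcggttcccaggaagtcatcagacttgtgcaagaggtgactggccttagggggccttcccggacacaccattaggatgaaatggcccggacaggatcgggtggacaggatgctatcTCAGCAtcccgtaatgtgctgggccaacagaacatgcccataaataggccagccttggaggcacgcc
Counted back from the start, the half-site lay at bases 108 to 103 in Cryaa, 57 to 52 in Cryba1, 84 to 79 in Crybb1 and 67 to 62 in Crybb3. The TATA box lay at bases 23 to 18 in Cryba1 and 30 to 25 in Crybb1. For Cryba1 and Cryba4 the bases after the RefSeq start were not found in a GENCODE M21 transcript of the gene. The positions in Cryba1 therefore hold for the RefSeq start only. RefSeq windows were at hand for 8 of the 9 genes, all but Cryab. The half-site TGCTGA, searched on both strands, was found in 7 of these 8, all but Crybb2, and in 16.1% of the 32851 mouse windows of the same length. Cryba4 held it 3 times. TATAAA was found in Cryba1, Crybb1 and Crygs and in 12.4% of all windows, and the retinoid receptor half-site AGGTCA in Cryba4 alone and in 14% of all windows. GAANNTTC, a core of the heat shock element, was found in none of the 8 and in 6.69% of all windows. A match is a description of the letters in the window and not of binding. The genes that were higher in cone cultures and those that were higher in rod cultures both held the half-site.

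Cryab and Crybb3 were higher than in primed cells at every day of both inductions, while Cryaa, Cryba1 and Crybb1 were called at some days and in some arms. No tested member passed the test for either priming: none of 5 was called in cone primed against untreated cells (0% of all genes called; 0 members at an unadjusted p under 0.05, and 0 by DESeq2) and none in rod primed against untreated cells (10.3% of all genes called; 1 member, Cryab, at an unadjusted p under 0.05 and 1 by DESeq2). Against the primed cells of the same arm, 2 of 5 tested members were higher at day 5 of cone induction, where 22.3% of all genes were called and 12.2% called higher. At day 12 it was 5 of 5 (48.4% of all genes called, 26.7% higher), at day 21 again 5 of 5 (52.6% and 29.4%) and at day 35 it was 3 of 5 (57.7% and 31.1%). Under rod induction 3 were higher at day 5 (17.5% of all genes called, 8.76% higher), 3 at day 12 (42.4% and 24.2%) and 2 at day 21 (50.8% and 27.2%). At day 35 of rod induction 2 were higher and 1 was lower (55.6% of all genes called, 29.4% higher and 26.2% lower). Large shares of all genes changed in these comparisons. All 5 tested members passed the filter on low counts through induced libraries and not through primed ones. The counts of members called higher are therefore not independent of the filter. At day 35 of both arms and day 21 of rod induction the members' share called in either direction was near or below that of all genes. In rod cultures Cryaa was called at none of the 4 days. The 4 comparisons of an arm share the same primed libraries.

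**Figure D1:**
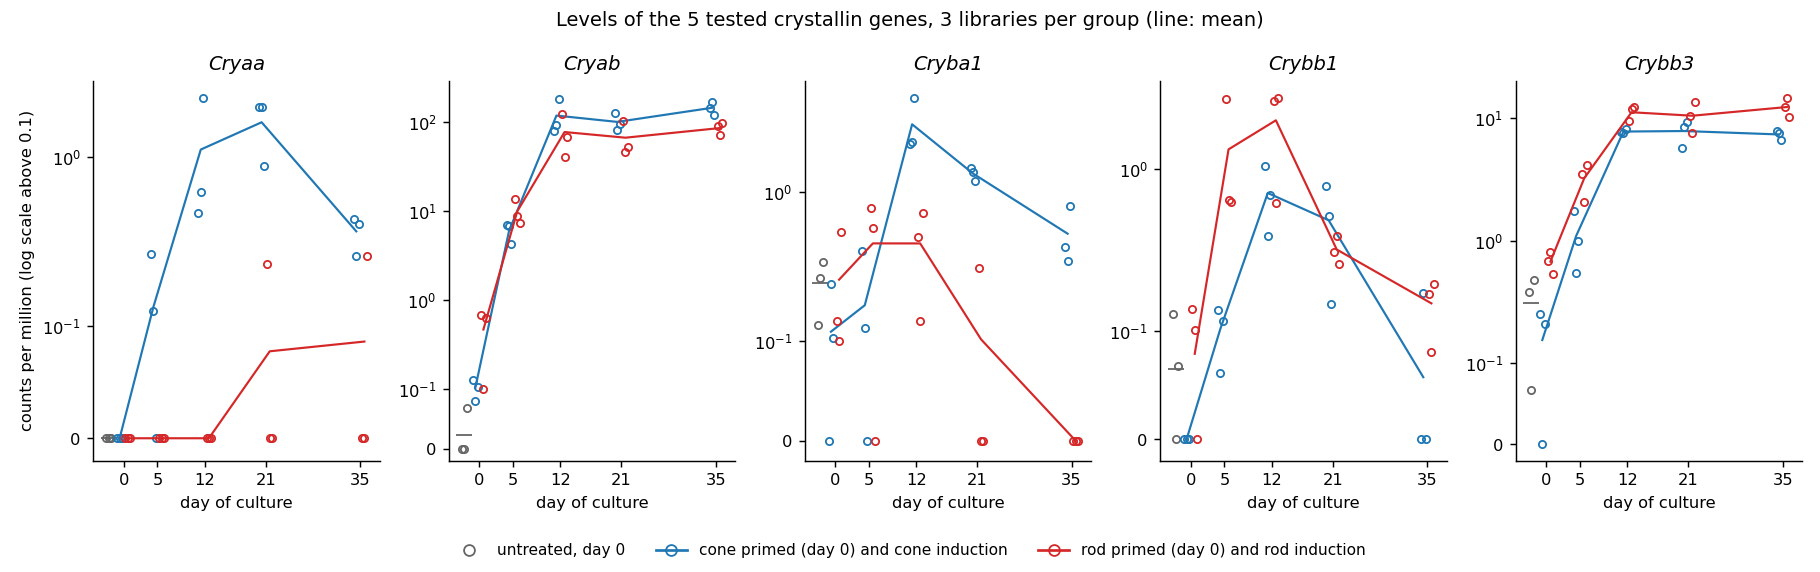
CPM of the 5 tested crystallin genes (y axis, logarithmic above 0.1 and linear below) against the day of culture (x axis), with 1 open point for each of the 3 libraries per group and a line through the group means; grey is untreated, blue the cone arm and red the rod arm. Cryab and Crybb3 climb by day 12 and stay level in both arms, Cryaa is seen in cone libraries with 2 rod libraries above 0, and Cryba1 and Crybb1 are lower at day 35 than at day 12 in both arms.

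Cryab, alpha B crystallin, is the stress-inducible small heat shock protein of the family (ENSMUSG00000032060, GRCm38 chromosome 9, 50752758 to 50756633, plus strand). The gene overlaps Hspb2 of the opposite strand. In untreated cells Cryab stood at 0, 0 and 0.0679 CPM, in cone primed cells at 0.126, 0.0808 and 0.105, and in rod primed cells at 0.678, 0.101 and 0.628. Rod primed and untreated libraries did not overlap, at 13 counts against 1, a ratio of 17.2 (95% counting interval 2.58 to 729, edgeR adjusted p = 0.165). Under cone induction it read 6.88, 6.87 and 4.30 CPM at day 5, then 79.1, 90.8 and 182 at day 12, 124, 81.2 and 93.6 at day 21, and 144, 167 and 119 at day 35. Under rod induction it read 13.5, 8.87 and 7.29 CPM at day 5, 123, 40.4 and 66.7 at day 12, 101, 45.4 and 52.4 at day 21, and 88.6, 70.3 and 96.2 at day 35. Every induced library stood above every primed library, and every library from day 12 on stood above every library of day 5. In the cone arm the primed cells had 3 counts in all, so the increase is a ratio of CPM with its 95% counting interval: 59.4 (20.1 to 290) by day 5, 1214 (415 to 5891) by day 12, 957 (327 to 4645) by day 21 and 1420 (486 to 6888) by day 35, with edgeR adjusted p from 1.64e-05 at day 5 to 7.54e-13 at day 35. In the rod arm the fitted log2 fold change was 4.38 ± 0.60 (SE) by day 5, 7.35 ± 0.56 by day 12, 7.15 ± 0.56 by day 21 and 7.51 ± 0.55 by day 35 (adjusted p from 1.71e-05 to 2.28e-11). These 8 calls were kept when each of the 33 libraries was left out in turn. From day 12 to day 35, a comparison added after the values were seen, Cryab did not pass the test (0.29 ± 0.33 in cone cultures and 0.15 ± 0.33 in rod cultures on the log2 scale, adjusted p = 0.566 and 0.782). In whole cultures a shift in the share of cells that make a transcript and a shift in the amount per cell cannot be told apart.

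Between cone and rod cultures of the same day no difference in Cryab passed the test. On the log2 scale the cone minus rod difference was -0.70 ± 0.38 (SE, n = 3 against 3) on day 5, 0.62 ± 0.33 on day 12, 0.58 ± 0.33 on day 21 and 0.75 ± 0.33 on day 35, with edgeR adjusted p between 0.154 and 0.316. Cone libraries were all below rod libraries at day 5 and all above them at day 35, and overlapped at days 12 and 21. Over the mean of days 5 to 35 the difference was 0.31 ± 0.17 (adjusted p = 0.192). It passed the test (0.44, adjusted p = 0.0390) without replicate 1 of rod induction day 12, the rod library with the highest Cryab of its day.

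Cryaa, alpha A crystallin, is the partner that in the lens assembles with alpha B into large oligomers (ENSMUSG00000024041, chromosome 17, 31677933 to 31681722, plus strand; the annotated AC090881.2 lies antisense to it). It had no count in any of the 9 untreated and primed libraries. Under cone induction it read 0.267, 0.122 and 0 CPM at day 5, 0.466, 0.621 and 2.24 at day 12, 1.97, 1.97 and 0.888 at day 21, and 0.427, 0.258 and 0.404 at day 35. Under rod induction it had no count at days 5 and 12, and a single library of 3 had counts at day 21 (0.232 CPM) and at day 35 (0.258 CPM). Cryaa was thus seen in 11 of 12 cone induction libraries and 2 of 12 rod induction libraries. Against cone primed cells it was at least 11.9-fold higher at day 12 (41 counts against 0, edgeR adjusted p = 0.00292), at least 15.2-fold at day 21 (50 against 0, adjusted p = 0.00117) and at least 3.62-fold at day 35 (13 against 0, adjusted p = 0.0305). The day 35 call was lost (adjusted p from 0.0552 to 0.0780) without any 1 of the 3 cone primed libraries or without replicate 1 or 3 of cone induction day 35.

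Cryba1 encodes the beta A3 and A1 crystallins, acidic structural proteins that have also been studied in retinal astrocytes and pigment epithelium (ENSMUSG00000000724, chromosome 11, 77718615 to 77725283, minus strand). The gene overlaps Nufip2 of the opposite strand. Untreated cells read 0.128, 0.267 and 0.340 CPM, cone primed cells 0, 0.243 and 0.105, and rod primed cells 0.136, 0.101 and 0.539. Cryba1 thus drew only a few counts before induction, 10, 4 and 8 over the 3 libraries of these groups. Under cone induction it read 0.401, 0.122 and 0 CPM at day 5, 2.10, 2.17 and 4.25 at day 12, 1.44, 1.37 and 1.18 at day 21, and 0.427, 0.343 and 0.807 at day 35. Under rod induction it read 0.786, 0.572 and 0 CPM at day 5, 0.500, 0.136 and 0.721 at day 12, 0.309, 0 and 0 at day 21, and 0 in all 3 libraries at day 35. The cone arm went up to day 12 and came down, and the rod arm was at its lowest at the end. On the log2 scale it was 4.35 ± 0.98 above cone primed cells at day 12 (edgeR adjusted p = 0.000682) and 3.25 ± 1.02 above them at day 21 (adjusted p = 0.00946), while the value at day 35 was 1.94 ± 1.10 (adjusted p = 0.136). In rod cultures of day 35 the gene had no count against 8 in rod primed cells, and so was lower by at least 3.72-fold (adjusted p = 0.0286). That call was lost without replicate 3 of the rod primed cells (adjusted p = 0.172), without any 1 of the 3 rod day 35 libraries (0.0549 to 0.0684) and with limma-voom sample weights (0.0722).

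Crybb1, a basic beta crystallin of lens fibres (ENSMUSG00000029343, chromosome 5, 112255815 to 112269585, plus strand), was earliest in the rod arm. It read 0.128, 0 and 0.0679 CPM in untreated cells, 0 in all 3 cone primed libraries, and 0.136, 0.101 and 0 in rod primed cells. Under rod induction it read 2.70, 0.643 and 0.625 CPM at day 5, 2.64, 0.614 and 2.74 at day 12, 0.309, 0.386 and 0.261 at day 21, and 0.170, 0.0809 and 0.194 at day 35. Under cone induction it read 0.134, 0.0608 and 0.116 CPM at day 5, 1.05, 0.388 and 0.696 at day 12, 0.787, 0.514 and 0.148 at day 21, and 0, 0.172 and 0 at day 35. Both arms were highest on average at day 12, and the rod libraries of days 5 and 12 spread widely within their groups. Against primed cells the rod arm had a ratio of 16.0 (95% counting interval 4.17 to 137, 42 counts against 2, edgeR adjusted p = 0.00589) at day 5 and of 28.1 (7.54 to 236, 84 against 2, adjusted p = 0.000309) at day 12. The cone arm was at least 6.66-fold higher at day 12 (23 counts against 0, adjusted p = 0.00126) and at least 4.25-fold higher at day 21 (14 against 0, adjusted p = 0.00456).

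Cryba1 and Crybb1 were lower at day 35 than at day 12 in both arms, in 2 comparisons that were added after the values were seen. In the cone arm 2 of 5 tested members were called, both lower (21.8% of all genes called, 9.39% lower): Cryba1 at -2.41 ± 0.79 on the log2 scale (edgeR adjusted p = 0.0306) and Crybb1 to a ratio of 0.0836 (95% counting interval 0.00956 to 0.338, 2 counts against 23, adjusted p = 0.0166). In the rod arm the same 2 genes were called lower (26.4% of all genes called, 13.8% lower): Crybb1 at -3.64 ± 0.78 (adjusted p = 0.00124), and Cryba1 at least 5.90-fold (0 counts against 19, adjusted p = 0.0160). Neither gene passed the filter on low counts through its day 35 libraries, so these counts of 2 among 5 are not independent of the filter. Only the Crybb1 call in rod cultures held in every omission of a library. In the cone arm Cryba1 was not called without replicate 3 of day 12 or without any 1 of the 3 day 35 libraries (adjusted p 0.0510 to 0.106), and Crybb1 not without replicate 1 of day 12, or without replicate 1 or 3 of day 35 (0.0504 to 0.0781). In the rod arm Cryba1 was not called without replicate 3 of day 12 (0.0525) or of day 35 (0.0562).

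Crybb3, the other basic beta crystallin that was tested (ENSMUSG00000029352, chromosome 5, 113075839 to 113081584, minus strand), ran beside Cryab in time but was higher in the rod arm. It read 0.384, 0.0667 and 0.475 CPM in untreated cells, 0.252, 0 and 0.210 in cone primed cells, and 0.678, 0.806 and 0.539 in rod primed cells. Under cone induction it read 1.74, 0.547 and 0.988 CPM at day 5, 7.70, 7.53 and 8.20 at day 12, 5.77, 8.56 and 9.33 at day 21, and 7.94, 7.55 and 6.70 at day 35. Under rod induction it read 3.48, 2.07 and 4.17 CPM at day 5, 9.50, 11.9 and 12.3 at day 12, 10.4, 7.57 and 13.6 at day 21, and 12.3, 14.6 and 10.3 at day 35. As for Cryab, all libraries of day 12 and later stood above all earlier ones of their arm. On the log2 scale it was 2.90 ± 0.63 (edgeR adjusted p = 0.00153) above cone primed cells at day 5 and 5.66 ± 0.53 above them at day 35 (adjusted p = 8.20e-10). In the rod arm it was 2.25 ± 0.43 above primed cells at day 5 (adjusted p = 0.000612) and 4.19 ± 0.41 at day 35 (adjusted p = 3.29e-09). From day 12 to day 35 it differed by -0.08 ± 0.32 in cone and 0.14 ± 0.31 in rod cultures (adjusted p = 0.889 and 0.778).

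The remaining 4 genes were near the limit of detection, and no test was run on them in the main fit. Crybb2 (ENSMUSG00000042240, chromosome 5, 113058258 to 113070117, minus strand, with the annotated Gm43247 antisense to it) had no count in the 9 untreated and primed libraries or at day 5 of cone induction. It had 5, 5 and 5 counts at day 21 and 3, 0 and 5 at day 35 of cone induction, and 6, 3 and 2 counts at day 21 and 0, 2 and 1 at day 35 of rod induction. With no filter on low counts Crybb2 was called higher against primed cells at day 21 in both arms (edgeR adjusted p = 0.011 in cone and 0.039 in rod cultures) and at day 35 in the cone arm (0.0488). Its highest group counts fell at day 21 in both arms and those of Crybb1 at day 12, an order that was not tested. Crygs, gamma S crystallin (ENSMUSG00000033501, chromosome 16, 22805203 to 22811410, minus strand), had 22 counts in 9 libraries, of which 8 fell in the 3 cone libraries of day 35 (1, 3 and 4). Cryba2 (ENSMUSG00000006546, chromosome 1, 74889934 to 74893143, minus strand) had 1, 2 and 2 counts in untreated cells, at most 4 in any library, and 0 in all 6 libraries of day 35. Cryba4 (ENSMUSG00000066975, chromosome 5, 112246493 to 112252518, minus strand) had 8 counts in 4 libraries, 5 of them in a single rod library of day 21. For Crygs, Cryba2 and Cryba4 no difference between groups was resolved at these counts.

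**Figure D2:**
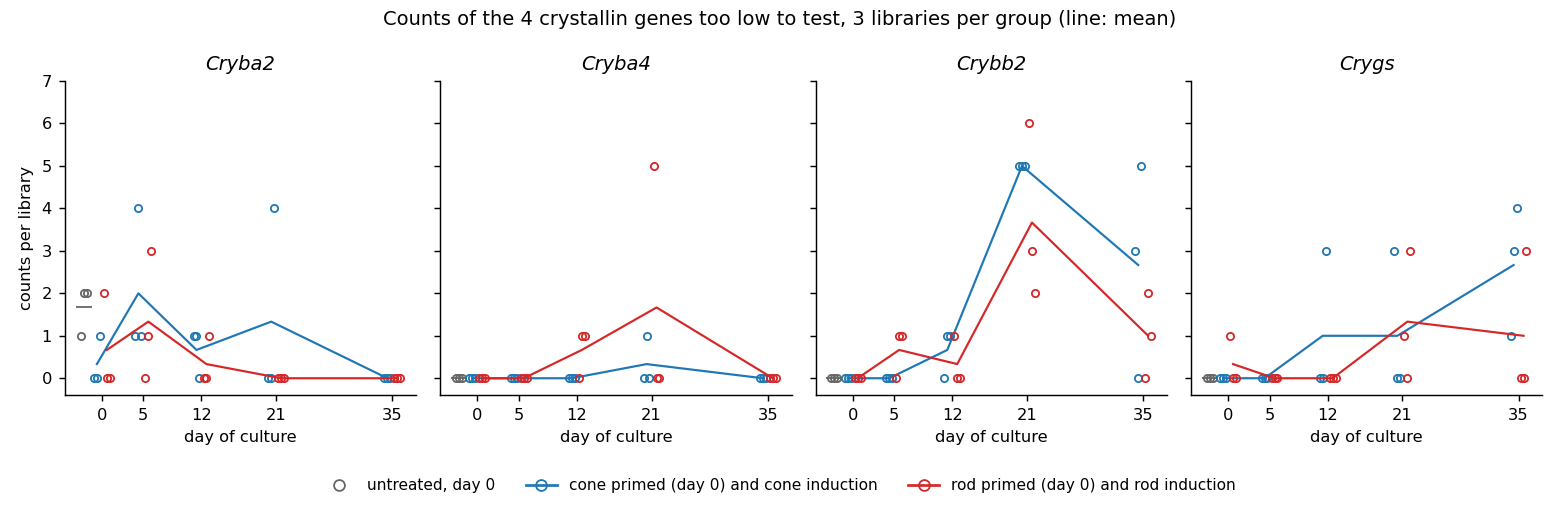
Counts per library (y axis) of the 4 crystallin genes left out by the filter on low counts, against the day of culture (x axis), with 1 point per library, 3 libraries per group and a line through the group means. No library holds more than 6 counts of any of the 4 genes, and the highest group of Crybb2 is day 21 in both arms.

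Per length the order of levels was set by Cryab and Crybb3. In CPM per kilobase of annotated exon, group means at day 35 of cone induction were 96.8 for Cryab, 3.17 for Crybb3, 0.330 for Cryba1, 0.254 for Crygs, 0.175 for Cryaa, 0.109 for Crybb2 and 0.0581 for Crybb1, with Cryba2 and Cryba4 at 0. At day 35 of rod induction they were 57.5 for Cryab, 5.32 for Crybb3 and 0.150 for Crybb1, and the other 6 were at 0.0738 or less. Below Crybb3 the libraries of neighbouring genes overlapped on this scale in both groups, so their order is not resolved. In untreated cells the highest means were those of Cryba1 at 0.154 and Crybb3 at 0.132 CPM per kilobase.

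Cone and rod cultures differed in 4 of the 5 tested members over the mean of days 5 to 35, in opposite directions: Cryaa and Cryba1 were higher in cone cultures and Crybb1 and Crybb3 higher in rod cultures (27.8% of all genes called, 15.6% higher and 12.2% lower in cone). On the log2 scale the fitted mean difference, cone minus rod, was 4.15 ± 0.76 (SE) for Cryaa (edgeR adjusted p = 0.000538), 2.68 ± 0.60 for Cryba1 (adjusted p = 0.00140), -1.45 ± 0.45 for Crybb1 (adjusted p = 0.0179) and -0.81 ± 0.17 for Crybb3 (adjusted p = 0.000501). With the days on which a group had no count set to their lower bound, the mean was 2.69 for Cryaa and 1.95 for Cryba1. All 4 calls held in each of the 33 omissions of a library. Cryaa and Cryba1 entered the tested set through their cone libraries and Crybb1 mainly through its rod libraries. The count of 4 among 5 is therefore not independent of the filter.

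By day, none of the members was called between cone and rod primed cells at day 0 (7.27% of all genes called; 1 member, Crybb3, at an unadjusted p under 0.05 and 1 by DESeq2). Crybb3 was lower without overlap in cone primed cells, at -2.22 ± 0.71 on the log2 scale (edgeR adjusted p = 0.0556). At day 5, 2 of 5 were called, both lower in cone cultures (9.28% of all genes called, 5.80% lower): Crybb1 at -3.49 ± 0.82 (adjusted p = 0.00668) and Crybb3 at -1.57 ± 0.37 (adjusted p = 0.00698). The Crybb1 call was lost without replicate 1 of rod induction day 5 (-2.51, adjusted p = 0.0848), and the Crybb3 call without replicate 2 of cone day 5 (0.0659) or replicate 3 of rod day 5 (0.0588). Crybb1 had passed the filter on low counts mainly through rod libraries, so the count of 2 is not independent of the filter. At later days the calls were in the other genes and in the other direction.

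At day 12, 2 of 5 were called, both higher in cone cultures (10.1% of all genes called, 5.98% higher). They were Cryaa and Cryba1, which passed the filter on low counts through cone libraries of days 12 and 21. The counts called at these days are therefore not independent of the filter. Cryaa was at least 16.9-fold higher (41 counts against 0, edgeR adjusted p = 0.00792) and Cryba1 differed by 2.64 ± 0.79 on the log2 scale (adjusted p = 0.0324). At day 21 the same 2 genes were called (9.00% of all genes called, 5.86% higher): Cryaa at a ratio of 20.9 (95% counting interval 6.77 to 105, 50 counts against 3, adjusted p = 0.0197) and Cryba1 at 3.62 ± 1.00 (adjusted p = 0.0227). At day 35 Cryba1 alone was called (12.3% of all genes called, 7.77% higher), at least 7.02-fold higher in cone cultures (19 counts against 0, adjusted p = 0.0216). Cryaa then had 13 counts against 4, with overlap (adjusted p = 0.379). For each of these calls the cone libraries lay wholly above the rod libraries, which describes the called values and is no further support for them.

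These daily calls rested on few counts, and single libraries decided several. With 3 libraries of each group in a fit of those groups alone, Cryaa and Cryba1 at day 12 (edgeR adjusted p = 0.109 and 0.0927) and Cryba1 at day 21 (0.0554) were not called. Cryaa was not called at day 12 without replicate 3 of the cone cultures (0.0508), nor at day 21 without replicate 2 of cone (0.0534) or replicate 2 or 3 of rod (0.0805 and 0.0870). Cryba1 was not called at day 12 without replicate 3 of cone (0.151) or without replicate 1, 2 or 3 of rod (0.0538, 0.125 and 0.0532), at day 21 without replicate 2 or 3 of rod (0.10 and 0.109), or at day 35 without replicate 3 of cone (0.0762) or any 1 of the 3 rod libraries (0.0544 to 0.0722). Every one of these values kept its direction.

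**Figure D3:**
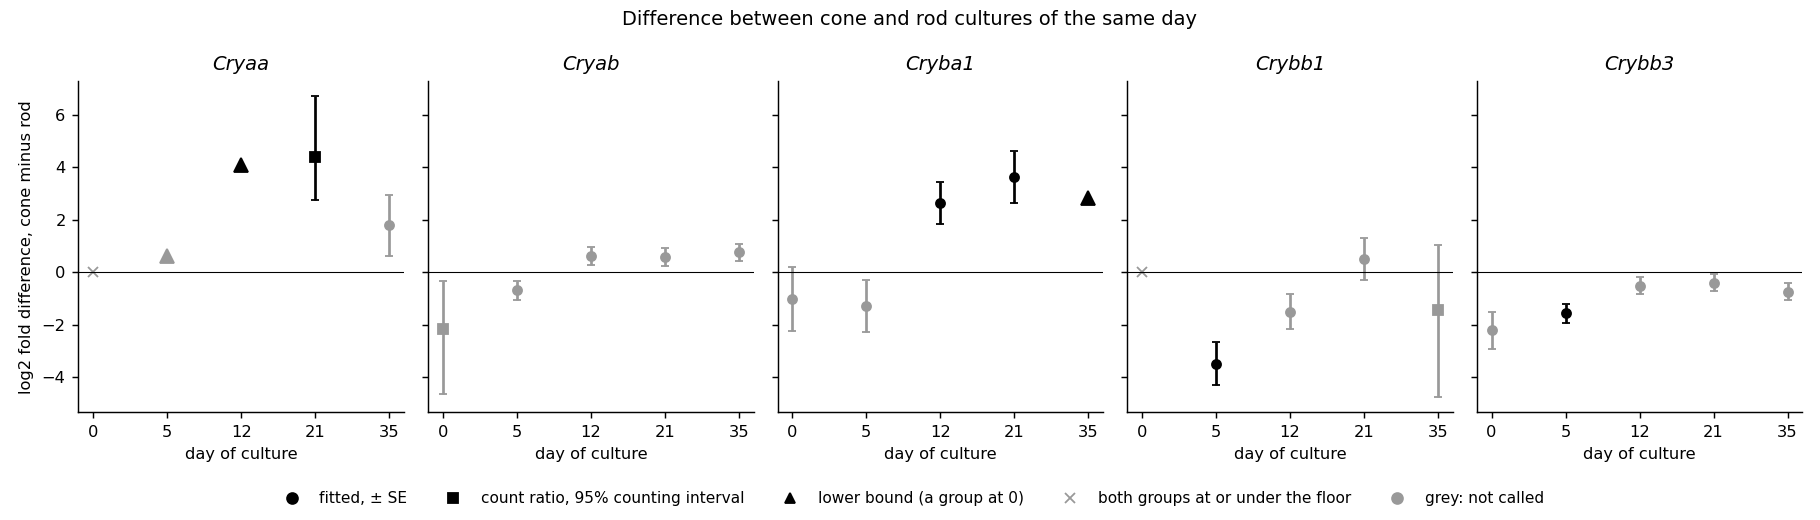
Log2 fold difference between cone and rod cultures (y axis; above 0 is higher in cone) at each day (x axis) for the 5 tested genes. Circles are fitted values with their SE, squares count ratios with a 95% counting interval, triangles lower bounds where 1 group had no count, crosses groups at or under the floor, and grey marks values that were not called. Called values lie below 0 at day 5, in Crybb1 and Crybb3, and above 0 from day 12 on, in Cryaa and Cryba1.

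Whether the cone minus rod difference changed over the 5 days was tested in the same fit. It was called for 1 of 5 members, Cryba1 (edgeR adjusted p = 0.0274; 9.22% of all genes called), whose difference moved from -1.02 ± 1.23 at day 0 and -1.29 ± 0.99 at day 5 to the positive values above. The adjusted p was 0.135 for Cryab, 0.141 for Crybb1, 0.206 for Crybb3 and 0.501 for Cryaa. The Cryba1 call was lost without replicate 3 of the rod primed cells (0.0622), replicate 2 of cone day 5 (0.0559), or replicate 1 or 2 of rod day 5 (0.0687 and 0.0609). When the change from primed cells to day 35 was compared between the arms, no member was called (5.66% of all genes called; 1 member at an unadjusted p under 0.05 and 1 by DESeq2). The largest such difference among the fitted ones was 6.75 ± 2.13 for Cryba1 (adjusted p = 0.0620), a value that rests on a rod group with no count.

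The other genes that carry a crystallin name were set beside the members. The lens gamma crystallins Cryga to Crygf had 3 counts in all, spread over 3 of 33 libraries. Of 15 such genes 7 were tested, and over the mean of days 3 were higher and 1 was lower in cone cultures (15.6% and 12.2% of all genes), with a median log2 difference of 0.15 against 0.01 over all genes tested. Cryzl2, a quinone oxidoreductase-like gene, differed by 3.80 ± 0.34 on the log2 scale (edgeR adjusted p = 3.11e-09), Crybg1, which encodes a betagamma domain protein, by 2.06 ± 0.22 (adjusted p = 4.57e-08) and Crym, mu crystallin, a ketimine reductase that binds thyroid hormone, by 0.89 ± 0.19 (adjusted p = 0.000790). Cryzl1 was lower, at -0.18 ± 0.06 (adjusted p = 0.020). Crym, at group means of 83.2 to 243 CPM, was already at 229 ± 12.3 CPM (SD, n = 3) in untreated cells.

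Of the defining markers, Lim2 and Lenep, which encode lens proteins, had no count in any of 33 libraries, and Foxe3, a transcription factor of the lens epithelium, had 1. Mip, the water channel of lens fibres, had 82 counts in 17 libraries, with 1.17, 1.16 and 1.55 CPM at day 12 of cone induction and 0.143, 0 and 0 at day 12 of rod induction. It was higher in cone cultures at day 12 at a ratio of 27.8 (95% counting interval 7.27 to 237, edgeR adjusted p = 0.00102) and at day 21 at a ratio of 21.4 (3.35 to 893, adjusted p = 0.0151). Averaged across days 5 to 35 its fitted log2 difference was 3.48 ± 0.55 (adjusted p = 5.66e-05), or 2.73 with the day on which rod cultures had no count set to its bound. Bfsp1, a lens beaded filament protein, differed by 1.41 ± 0.29 over the mean of days (adjusted p = 0.000514), and its partner Bfsp2 by 0.30 ± 0.20 (adjusted p = 0.301). Lgsn, which encodes lengsin, a glutamine synthetase-like protein of the lens, had 2416 counts, nearly all at day 12 and later, and read 15.5, 22.3 and 13.1 CPM at day 35 of cone and 10.4, 15.3 and 33.6 CPM at day 35 of rod induction. It was higher than in primed cells at a ratio of 504 in cone (95% counting interval 90.2 to 19955, adjusted p = 4.15e-08) and 299 in rod cultures (82.4 to 2469, adjusted p = 5.18e-08), and between cone and rod it differed by 0.56 ± 0.57 over the mean of days (adjusted p = 0.517). Of 14 lens markers 5 were tested and 2 of these were higher in cone cultures over the mean of days (27.8% of all genes called, 15.6% higher), with a median log2 difference of 0.56, or 0.30 with groups without a count set to their bound, against 0.01 over all genes. The cone libraries of day 12 let Mip pass the filter on low counts, so this count of 2 is not independent of the filter. Against primed cells 4 of 5 were higher at days 12, 21 and 35 of cone induction, and 1, 1 and 2 of 5 at the same days of rod induction. Of all genes 26.7%, 29.4% and 31.1% were called higher at these days of cone induction and 24.2%, 27.2% and 29.4% of rod induction. The summed level of the list ran from 23.3 to 29.2 CPM in cone primed and from 28.7 to 41.8 CPM in rod primed libraries, from 43.4 to 104 CPM in cone induction libraries and from 33.8 to 93.6 CPM in rod induction libraries. Most of this sum was Tdrd7, a tudor domain gene that is also widely made outside the lens, at group means of 24.4 CPM in cone primed cells and 40.6 CPM at day 35 of cone induction. The part of these markers in the differences of the crystallin genes was not tested.

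Regulators of the lens programme were read as a list of 14, of which 12 were tested. Over the mean of days 5 were higher and 1 was lower in cone cultures, with a median log2 difference of 0.23 (0.22 with the bounds), beside 15.6% of all genes called higher and 12.2% lower. Sox1 differed by 6.49 ± 0.73 on the log2 scale (edgeR adjusted p = 4.04e-07), a fitted value that rests on rod groups with 2 counts or fewer and was 5.07 with the bounds. Pitx3, a homeobox factor of lens and midbrain, differed by 2.36 ± 0.30 (adjusted p = 1.01e-06), with 7.58, 6.76 and 11.9 CPM at day 12 of cone induction and 1.71, 0.341 and 1.44 at day 12 of rod induction. Tfap2a differed by 2.06 ± 0.22 (adjusted p = 4.28e-08). Maf, which in the lens activates crystallin promoters, differed by 0.72 ± 0.07 (adjusted p = 2.12e-08) and stood above primed cells at day 35 in both arms, by 1.71 ± 0.15 in cone cultures (adjusted p = 2.06e-10) and by 0.73 ± 0.15 in rod cultures (adjusted p = 0.000139). Against primed cells at day 35 the list went both ways: 3 of 12 were higher and 3 lower in cone cultures, and 2 higher and 4 lower in rod cultures (median log2 change 0.09 and -0.45, the latter -0.15 with the bounds). Of all genes 57.7% were called in cone and 55.6% in rod cultures, so the list changed no more often than the background. Meis2 was lower in both arms, at -3.15 ± 0.36 in cone (adjusted p = 2.07e-08) and -1.65 ± 0.33 in rod cultures (adjusted p = 0.000154), while Pax6, which is needed for lens and retina, was lower in cone at -0.49 ± 0.14 (adjusted p = 0.00392) and higher in rod cultures by 0.60 ± 0.14 (adjusted p = 0.000626).

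Small heat shock and chaperone genes were read beside Cryab because alpha B crystallin belongs to that family. Of 15 listed genes 12 were tested. At day 35, 8 were higher and 2 lower than in primed cells in the cone arm, and 7 higher and 2 lower in the rod arm, beside 57.7% of all genes called (31.1% higher) in cone and 55.6% (29.4% higher) in rod cultures. Their median log2 change was 0.84 (0.83 with the bounds) in cone and 0.67 in rod cultures, against 0.03 and 0.04 over all genes. Hspb1, another small heat shock protein gene, rose by 7.42 ± 0.58 on the log2 scale in cone cultures (edgeR adjusted p = 2.61e-11) and by 5.79 ± 0.50 in rod cultures (adjusted p = 3.48e-10), to group means of 24.3 and 21.8 CPM. Bag3, a co-chaperone that works with the small heat shock protein encoded by Hspb8, rose by 5.51 ± 0.36 and 3.99 ± 0.33 (adjusted p = 1.10e-12 and 1.37e-10), and Hspb8 by 4.44 ± 0.46 and 4.04 ± 0.43 (adjusted p = 4.31e-09 and 1.37e-08). The inducible heat shock gene Hspa1b rose by 2.61 ± 0.47 in cone and 2.38 ± 0.48 in rod cultures (adjusted p = 2.64e-05 and 0.000139). Hspb2, which overlaps Cryab on the opposite strand, had only 56 counts in 18 libraries and was not tested.

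**Figure D4:**
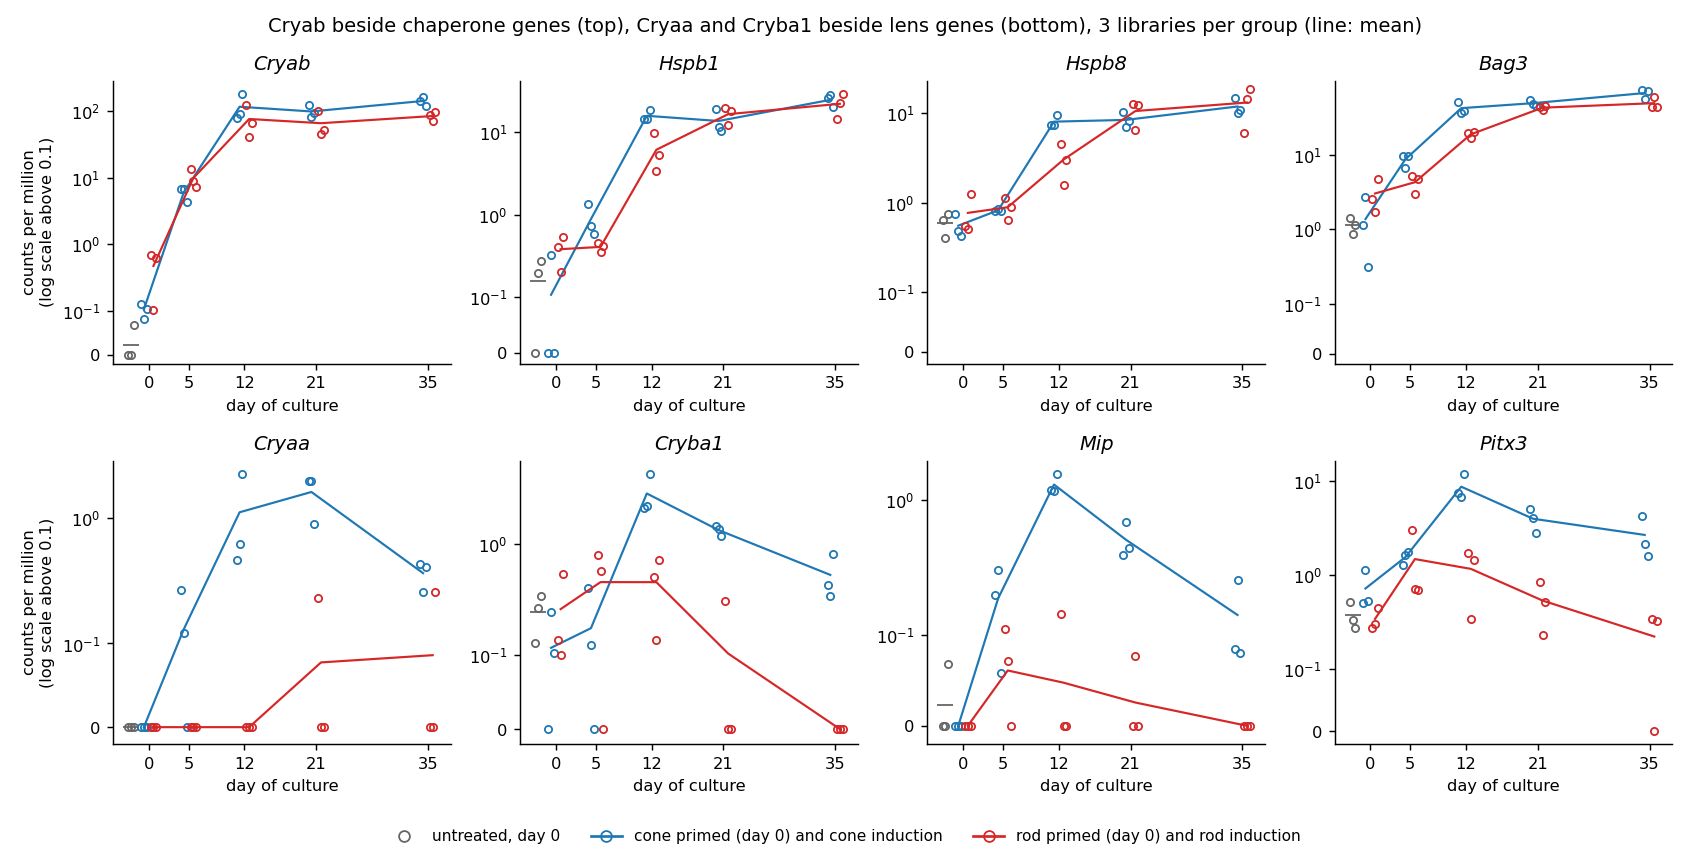
CPM (y axis, logarithmic above 0.1) against the day of culture (x axis) for Cryab with the chaperone genes Hspb1, Hspb8 and Bag3 in the upper row and for Cryaa and Cryba1 with the lens genes Mip and Pitx3 in the lower row, 1 point per library and a line through the means of 3. The upper 4 genes are higher from day 12 on in both arms, and the lower 4 have their highest group in cone cultures of day 12 or 21.

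Markers of other cell types moved over the same days, and their part in the changes of the crystallin genes was not tested. Against primed cells at day 35, 57.7% of all genes were called (31.1% higher) in cone and 55.6% (29.4% higher) in rod cultures. Astrocyte markers that were tested rose in 7 of 8 cases and fell in 1 by day 35 in both arms. Their median log2 change was 4.98 in cone and 5.19 (4.43 with the bounds) in rod cultures. Gfap went from 3 counts in each primed group to 151 ± 39.8 CPM (SD, n = 3) in cone and 174 ± 50.0 CPM in rod cultures. Of 10 Muller glia markers, all tested, 9 were higher by day 35 in the cone arm, and 8 were higher and 1 lower in the rod arm (median log2 change 3.24 and 1.70). Among them Rlbp1 rose by 2.92 ± 0.37 and 1.50 ± 0.34 on the log2 scale (edgeR adjusted p = 1.34e-07 and 0.000522), while Glul differed by 0.16 ± 0.18 in cone (adjusted p = 0.474) and fell by 0.44 ± 0.18 in rod cultures (adjusted p = 0.0431). Summed over their list, Muller glia markers ran from 495 to 643 CPM in cone primed and from 3976 to 4852 CPM in cone day 35 libraries. Markers of mesenchyme and muscle, where Cryab is also made, were higher by day 35 in 9 of 9 tested cases in both arms, from a sum of 3.25 to 8.05 CPM in cone primed to 2501 to 5173 CPM in cone day 35 libraries, and from 9.17 to 24.3 CPM in rod primed to 1101 to 2099 CPM in rod day 35 libraries. Microglia markers were higher in cone cultures over the mean of days in 6 of 6 tested cases, beside 15.6% of all genes called higher. Their sums were 46.3 to 258 CPM at day 35 of cone and 1.87 to 3.07 CPM at day 35 of rod induction.

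The labels call the cells retinal progenitors under cone or rod induction. Photoreceptor markers, however, summed to 1249 to 1424 CPM at day 5 of cone induction and to only 10.8 to 29.9 CPM at day 35, and to 629 to 1045 CPM at day 5 and 8.25 to 15.0 CPM at day 35 of rod induction. Of 8 tested markers of this list 7 were lower than in primed cells by day 35 in both arms. Of all 18150 genes tested, 4818 were called lower in cone and 4748 in rod cultures in these comparisons. Cone and rod are therefore used here as names of the culture arms.

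Across the 11 group means of log2 CPM, Cryab and Crybb3 followed each other most closely among the tested members (Pearson r = 0.97), followed by Cryaa with Cryba1 (0.79) and Crybb1 with Crybb3 (0.60), while Cryaa and Crybb1 shared little (0.14). The 11 points share the same libraries and the same rise with time, so these values are a description. Among 11917 genes compared in this way, the 3 most like Cryab were Frem1 (0.998), Raet1e (0.997) and A2m (0.995), and those most like Crybb3 were Tacc1 (0.995), Afap1l2 (0.995) and Hsd17b2 (0.994). The 3 most like Cryaa were Sdk2 (0.938), Trp53cor1 (0.936) and Zim1 (0.934). For Cryba1 they were Pde3b (0.900), Adam12 (0.884) and Stxbp6 (0.857), and for Crybb1 Chuk (0.951), Erbb4 (0.941) and Phlpp1 (0.926).

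The deposited TPM values did not follow the counts for these genes and were not used for levels. Cryab was listed at a TPM of 0 in 10 of the 23 libraries in which it had 100 or more counts, and Crybb3 in 8 of 11. Crybb1 was listed at 0 in all 33 libraries. Cryba1 had a TPM above 0 in all 8 libraries in which it had no count. The same held beyond the family: Xist, on the minus strand, had 1728 to 26731 counts and a TPM of 0.289 to 7.84, while Tsix, which overlaps it on the plus strand, had 0 to 7 counts and a TPM of 0.180 to 591. Between 18.6% and 32.1% of protein-coding genes with 100 or more counts were listed at 0 TPM in each library. Whether the count and TPM tables read opposite strands was not tested on the reads.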

How the data were processed

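The deposited count tables hold raw counts per gene, and the deposited expression tables hold FPKM, TPM and coverage per gene; the submitters' processing notes name HISAT2, StringTie and HTSeq and the build GRCm38, without versions. RNA was total RNA, prepared with low-input Takara kits per the labels' protocols. The 5 summary lines of each count table (reads in no gene or not assigned) were left out, and 26.9% to 34.9% of counted reads fell in genes. Symbols came from the deposited tables and exon lengths from GENCODE M21. Counts were normalised by TMM and tested with edgeR 4.0.16 (glmQLFit and glmQLFTest on 11 groups, filterByExpr at a minimum count of 10) in R 4.3.3, with Benjamini-Hochberg adjustment over 18150 genes. Intervals of count ratios are exact at 95% and cover counting error only. TPM (limma 3.58.1, log2(TPM + 1)), DESeq2 1.42.0 and limma-voom weights were alternatives. The fit was tested on simulated data. TPM had been planned for levels between genes and was replaced by CPM per kilobase of exon, because TPM did not follow the counts. No pair of libraries within a group agreed within sampling noise (lowest chi-square per degree of freedom 7.80 over 33 pairs). All 9 members were named in every comparison, at most 4 called genes with the largest change from each list, with fixed lens and glia markers, and the 3 genes most like each tested member. The members and lists were chosen with earlier results of these data known.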

Additional observations from a re-analysis of the deposited data

Results flagged for a closer look

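The cone minus rod difference of Cryba1 changed over days 0, 5, 12, 21 and 35 (edgeR adjusted p = 0.0274, F test over the 5 days). Cone cultures were lower on average at days 0 and 5 and higher in every library at days 12, 21 and 35. Without replicate 3 of the rod primed cells, replicate 2 of cone day 5, or replicate 1 or 2 of rod day 5 the adjusted p was 0.0622, 0.0559, 0.0687 and 0.0609.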

How the results depend on the processing

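Depth limits these results: 7 of the 9 genes had 231 counts or fewer over all libraries, so their daily calls rest on few counts. The 43 gene values compared across settings kept direction and side of the threshold with RLE scaling, with no filter on low counts and with the replicate number as a block (43 of 43 each) and with DESeq2 (42 of 42). DESeq2 gave no adjusted p for Crybb1 at rod day 5 against primed cells, where it called 2 members against 3. With limma-voom weights 42 of 43 did, in fits of the compared groups alone 38 of 43, and among single-library omissions 332 of 372, with 39 calls lost and 1 gained. All of the 43 but Cryab over the mean of days were calls of the main fit, so gains outside them are not counted here. Such gains occurred: with 1 library left out, up to 3 members were called at rod day 21 against primed cells, against 2 in the main fit. For the change with day it was up to 2, against 1 in the main fit. With the replicate block the cone minus rod difference over the mean of days was 4.17 for Cryaa, 2.69 for Cryba1, -1.41 for Crybb1 and -0.81 for Crybb3, and the block changed no call. The replicate numbers showed no steady pairing of the libraries (correlations of deviations -0.23 to 0.51, and 0 of 15 pairs of groups with all 3 over 0.1). Whether some libraries shared animals or a batch cannot be told from this check.

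A filter at a mean of 1 CPM leaves Cryab and Crybb3 as the only members tested. Between cone and rod cultures it called 1 at day 0, 1 at day 5, 0 at days 12, 21 and 35, 1 over the mean of days and 0 for the change with day. Against cone primed cells it called 2 at day 12 and 2 at day 21, and 0 in each comparison of day 35 with day 12. DESeq2 called 1 at day 0, 2 at day 35, 2 for the change with day, 1 for the culture change by day 35 and 1 in rod primed against untreated cells. Limma-voom weights called 4 at day 12, 2 at day 35, 2 for the change with day and 1 for the culture change. Fits of the compared groups alone called 0 at day 12, 1 at day 21, 3 at day 35, 1 for the culture change and 1 in each comparison of day 35 with day 12.

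On the deposited TPM, limma called 1 member at day 35 of cone induction against primed cells and 0 in every other comparison in which the counts gave a call. Cryba1 then reversed to -0.57 between cone and rod at day 21, -0.31 at day 35, -0.05 over the mean of days, -0.57 at cone day 21 against primed cells and 0.20 at rod day 35 against primed cells, Cryab to -0.07 and Crybb3 to 0.22 over the mean of days. The TPM tables disagreed with the counts as described in the report.

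Leaving out 1 library at a time, the calls between cone and rod numbered 0 at day 0, 1 to 2 at day 5, 0 to 2 at day 12, 0 to 2 at day 21, 0 to 1 at day 35, 4 to 5 over the mean of days, 0 to 2 for the change with day and 0 for the culture change. Against primed cells they numbered 2, 5, 5 and 2 to 3 at days 5, 12, 21 and 35 of cone induction and 3, 3, 2 to 3 and 2 to 3 of rod induction, 0 for both primings, and from day 12 to day 35 0 to 2 in cone and 1 to 2 in rod cultures.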
